A study of Arabidopsis thaliana with 14 samples.

Results

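YODA (YDA) of Arabidopsis thaliana heads a MAP kinase cascade, as the kinase that activates the MAP kinase kinases. The cascade keeps epidermal cells of the leaf from becoming stomatal precursors, and it also acts in the first divisions of the embryo. Loss of its function gives leaves crowded with stomata, whereas an N-terminal deletion that makes the kinase constitutively active blocks stomatal formation. The genes described here were lower in both kinds of seedling.

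The genes were chosen by their measured values. A probe set (the group of array probes that reads 1 transcript) was taken when its mean log2(intensity + 16) was lower by at least 1 in NdelYDA than in Ler and lower by at least 1 in yda than in C24, with every mutant array below every array of its own control. Of 22746 probe sets, 665 (2.92%) met this for NdelYDA, 669 (2.94%) for yda and 178 (0.783%) for both. Class III peroxidases (6) and expansins (2) were left out, and no probe set named as an XTH gene was among the 178, which left 170. Platform annotation paired 79 of these with 1 gene and 6 with several, and gave no name to 85, so a peroxidase, XTH gene or expansin may remain among the unnamed. Because the rule used both comparisons, the falls are given as a description with no test.

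Whole seedlings at 7 dpg were measured on 14 1-colour arrays. The mutants were yda (4 arrays) and NdelYDA, which expresses YDA with its N terminus deleted and is coded NB89 in the labels (4 arrays). The controls were line CS9159 in the C24 ecotype (3 arrays) and the Ler ecotype (3 arrays). The labels of NdelYDA replicates 1 and 4 state the Ler ecotype and no stomata; no ecotype is stated for yda, and the labels name neither the yda allele nor the promoter of the deletion form, so pairing yda with C24 was read from the design. All mutant samples but NdelYDA replicate 4 are labelled biological replicates, and that sample and the controls carry only a number, so the spread behind the p-values may be partly technical.

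The arrays were comparable in scale, with medians of 202.9 to 225.85 and a mean of 500 without the extreme 2% of probe sets at each end. Within groups the arrays correlated at 0.977 to 0.989 on the log2 scale. The lowest correlation, 0.977, was between C24 replicates 1 and 3. For C24 replicate 1 the GAPDH 3′ to 5′ ratio, an index of RNA integrity, was 1.46, against 1.02 and 1.12 in the other C24 arrays, 0.789 to 0.945 in yda, 1.05 to 1.11 in Ler and 0.992 to 1.21 in NdelYDA. The part of RNA quality in the falls was not tested. C24 replicate 1 was the highest C24 array for 86 of the 170 probe sets (50.6%), compared with 35.5% of all probe sets, and the lowest for 29 (17.1%, compared with 40.6%). Without it the rule gave 163 probe sets, 148 of them among the 170. C24 replicate 3 also mattered, since 199 probe sets met the rule without it, 164 of them among the 170.

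Falls were mostly moderate and more often deeper in NdelYDA than in yda. The rule cut both at -1, so the medians are partly set by it. The log2 difference ran from -5.54 to -1.01 in NdelYDA, with a median of -1.52, and from -2.93 to -1.0004 in yda, with a median of -1.32. Mean intensity in NdelYDA was 1.14% to 48.4% of that in Ler (median 31.1%), and in yda 6.44% to 49.3% of that in C24 (median 36.0%). The fall was larger in NdelYDA for 118 probe sets and larger in yda for 52. For 54 the falls lay within 0.2 of each other, and for 17 they were over 1 apart, 15 of which were deeper in NdelYDA. In 7 probe sets both falls were at least 2, and in 28 both were at least 1.5. The arrays were whole seedlings, so fewer cells of a type and less RNA per cell cannot be told apart.

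**Figure D1:**
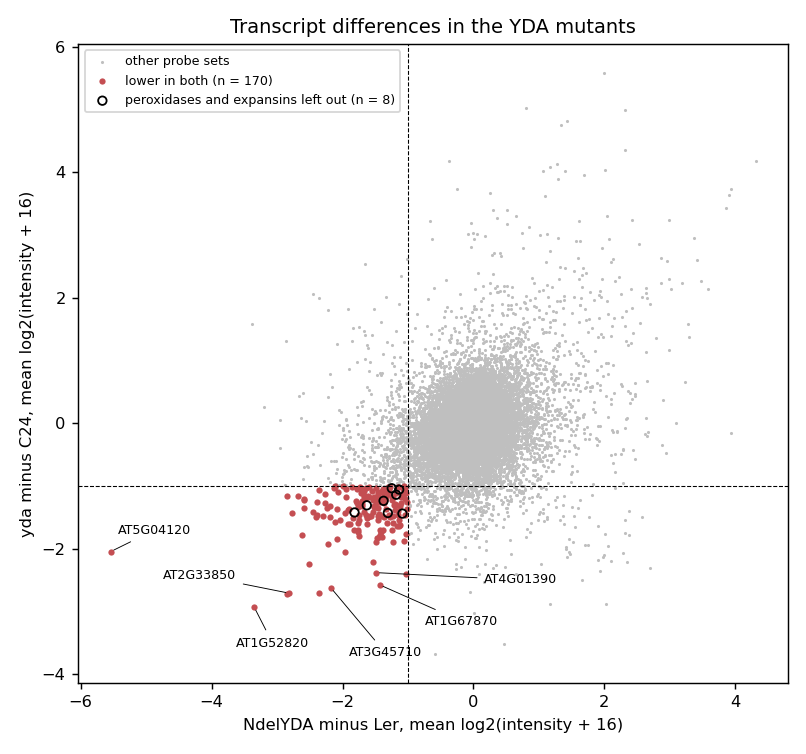
Each point is a probe set, with its NdelYDA minus Ler difference on the x axis and its yda minus C24 difference on the y axis, both in mean log2(intensity + 16). The 170 members (red) fill the lower left corner past the dashed lines at -1, the 8 left-out peroxidases and expansins are ringed, and AT5G04120 lies furthest left at -5.54.

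The threshold cut through a continuous range. The 3 members nearest inside it had yda minus C24 differences of -1.0004, -1.0030 and -1.0035, the first being AT4G11210, a dirigent protein gene. The 3 probe sets nearest outside it, with no overlap between arrays in either comparison, missed it with differences of -0.9948 and -0.9939 in NdelYDA and -0.9926 in yda.

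Array by array, the members formed clear steps between each mutant and its control, which the rule required. The median over the 170 lay between 529 and 585 on the Ler arrays and between 166 and 189 on the NdelYDA arrays. It lay between 359 and 448 on the C24 arrays and between 145 and 154 on the yda arrays. In 142 of the 170 (83.5%), all 8 mutant arrays also lay below all 6 control arrays, a pattern found in 3.47% of all probe sets and largely fixed by the rule. For the other 28, a mutant array reached a control array of the other comparison. The spread was largest in C24, where the median SD on the log2 scale over members was 0.23, against 0.12 in Ler, 0.16 in NdelYDA and 0.19 in yda. Over all probe sets it was also largest in C24, at 0.18, against 0.12 in Ler, 0.12 in NdelYDA and 0.16 in yda.

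**Figure D2:**
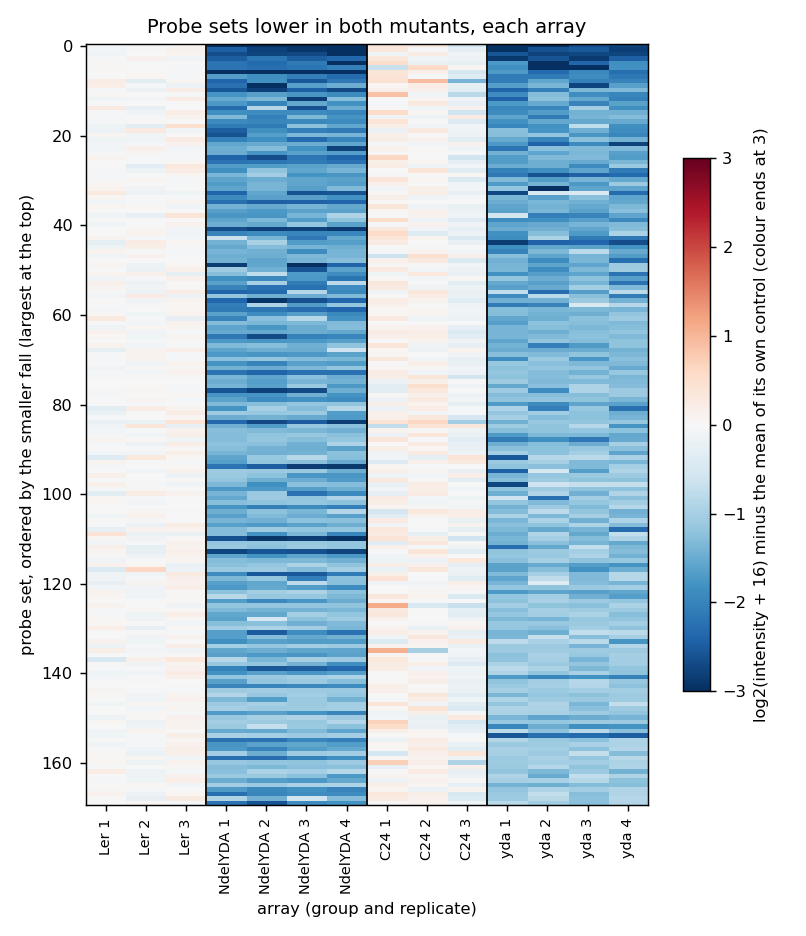
Rows are the 170 probe sets, ordered by the smaller of their falls, and columns are the 14 arrays. Colour is log2(intensity + 16) minus the mean of the control of the same pair, with the colour scale ending at 3 either way. The NdelYDA and yda columns are blue with a few pale cells, and among the C24 columns replicate 1 is more often red and replicate 3 more often pale blue.

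AT1G52820, a gene of the oxoglutarate-dependent dioxygenase superfamily of oxidative enzymes, had the largest smaller fall of all members. Its intensity was 924, 934 and 996 on the Ler arrays and 83.7, 80.5, 73.7 and 77.6 on the NdelYDA arrays. On the C24 arrays it was 582, 577 and 291, and on the yda arrays 45.6, 31.7, 59.2 and 53.4. Every mutant array was below every control array, and C24 replicate 3 was the lowest control. The log2 differences were -3.35 in NdelYDA and -2.93 in yda, so that 8.29% and 9.83% of the control means remained. Of the 8 mutant arrays, 5 were below the 30th percentile of their array, among them every yda array, so the remainder in yda is a low signal.

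AT2G33850 fell by nearly equal factors from very different control levels. It was at 1999, 2171 and 2351 in Ler and at 328, 309, 318 and 235 in NdelYDA. In C24 it was at 366, 472 and 371, and in yda at 54.2, 44.6, 46.5 and 45.5. Its level in NdelYDA was thus close to that of the C24 control, although no arrays overlapped. The differences were -2.81 and -2.71, and 13.7% and 11.8% of the control means remained. All 4 yda arrays were below the 30th percentile of their array. Ler stood above C24 by 2.39 on the log2 scale (SE 0.13, limma adjusted p = 1.02e-09).

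AT5G04120, of the phosphoglycerate mutase family, had the most unequal falls. In Ler it read 1520, 1547 and 1474, and in NdelYDA 11.8, 21.9, 22.2 and 12.8. In C24 it read 359, 307 and 185, and in yda 73.9, 41.8, 60.3 and 44.9. All mutant values were below the 30th percentile of their array (75.1 to 82.9), a low signal. Its log2 difference of -5.54 in NdelYDA left 1.14% of the Ler mean, whereas the difference of -2.05 in yda left 19.5% of the C24 mean. Ler was above C24 by 2.40 (SE 0.22, limma adjusted p = 3.26e-07), so the yda comparison started lower.

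AT4G01390 and AT1G67870 were tilted the other way. AT4G01390 was at 1304 ± 46.9 (SD, n = 3) in Ler and 464 ± 120 (n = 4) in NdelYDA, and at 1045 ± 39.9 (n = 3) in C24 and 189 ± 28.3 (n = 4) in yda. AT1G67870 was at 1161 ± 204 and 424 ± 106 in the first comparison and at 1306 ± 210 and 206 ± 32.6 in the second. Their differences were -1.49 and -1.43 in NdelYDA against -2.38 and -2.58 in yda, and no arrays of a mutant and its control overlapped.

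**Figure D3:**
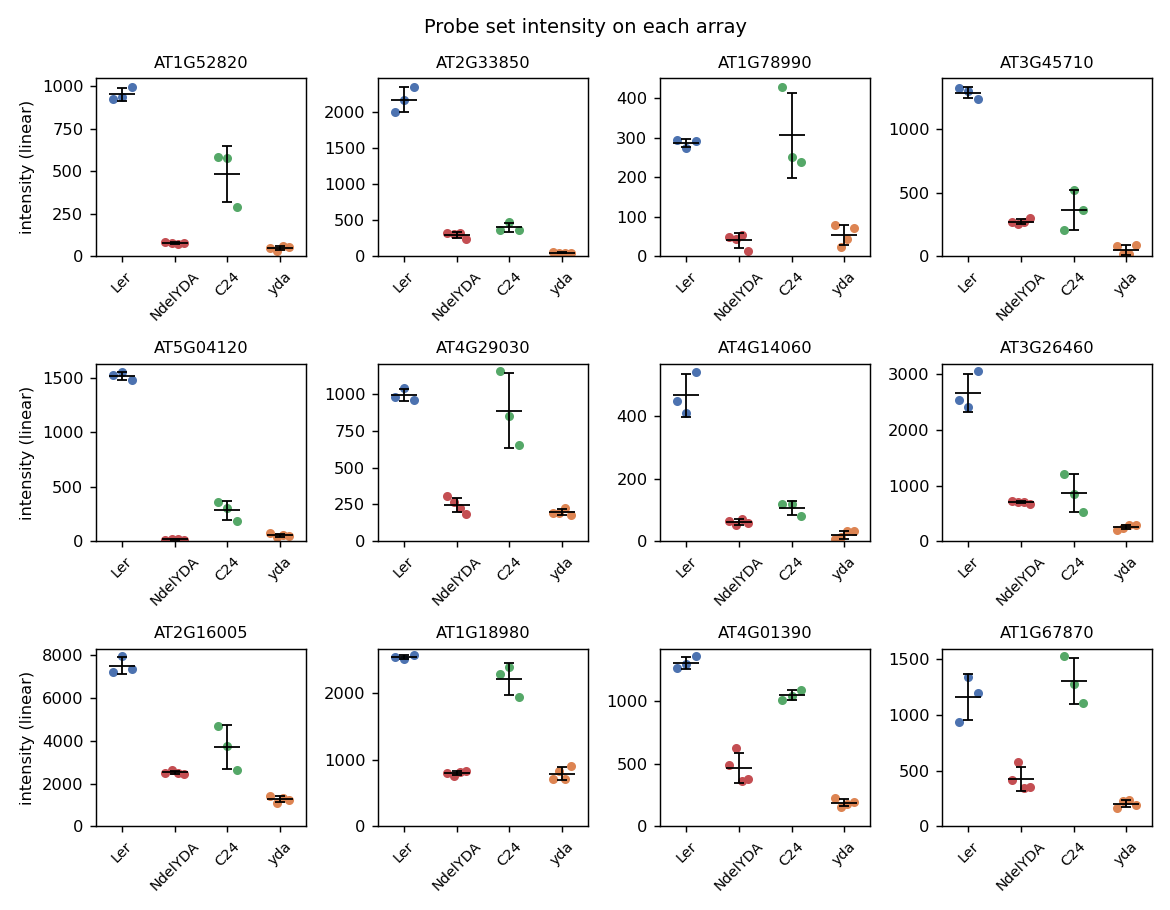
Intensity (linear scale, axes from 0) of 12 members on each array, with points for arrays, bars for the group mean and whiskers for the SD (n = 3 in Ler and C24, n = 4 in NdelYDA and yda). AT1G52820 falls to under 100 in both mutants, AT2G33850 and AT5G04120 start much lower in C24 than in Ler, and AT4G29030 starts at similar levels.

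The remaining members are described by what their proteins are known for. The families given are general background and are not in the tables used; 43 of the 79 named members could be placed, and the other 36 are given no role. These groups were formed, and most of their genes picked, after the values were seen, so no group is tested.

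Transport was represented by 4 members. AT3G45710 and AT3G45680 belong to the NRT1/PTR family, which carries nitrate, peptides and other small solutes. AT3G45710 read 1326, 1298 and 1237 in Ler and 266, 255, 269 and 298 in NdelYDA. In C24 it read 209, 521 and 363, and in yda 83.2, 17.7, 17.5 and 85.2. The NdelYDA values lay among those of the C24 control, so it is one of the 28 in which mutant arrays did not all lie below the 6 control arrays. Its differences were -2.18 and -2.62, and those of AT3G45680 were -2.07 and -1.09. SWEET16, a sugar facilitator of the vacuolar membrane, was at 408, 470 and 501 in Ler against 199, 221, 233 and 207 in NdelYDA. In C24 it was at 642, 583 and 839 against 254, 216, 233 and 247 in yda. The levels in the mutants were thus nearly the same from controls that differed. AT5G38030, a MATE-type efflux carrier, had differences of -1.38 and -1.11.

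Group sizes depend on how families were joined, and no share of such genes over all probe sets was taken. Proteins that bind or move lipids, joined from several families, numbered 8. Of these, AT4G14060, AT1G14960 and AT3G26460 have the Bet v 1 fold of major latex proteins, a hydrophobic pocket for small ligands. AT4G14060 read 448, 411 and 542 in Ler and 65.9, 53.2, 72.4 and 57.2 in NdelYDA. It read 119, 119 and 81.9 in C24 and 6.9, 13.3, 31.6 and 32.6 in yda. All 8 mutant arrays were below their 30th percentile. The differences of AT4G14060 were -2.62 and -1.78, and those of AT3G26460 were -1.89 and -1.61. For AT1G14960 they were -2.85 and -1.16, from a mean of 2622 ± 150 in Ler to 351 ± 38.3 in NdelYDA and from 1743 ± 577 in C24 to 746 ± 112 in yda.

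AT2G16005, with an MD-2-related lipid-recognition domain, was the brightest named member in Ler among those with the 25 largest smaller falls. Its intensities were 7186, 7951 and 7359 in Ler, 2473, 2640, 2515 and 2465 in NdelYDA, 4699, 3736 and 2644 in C24, and 1414, 1108, 1352 and 1239 in yda. C24 replicate 3 came close to the NdelYDA arrays but did not overlap them. The other 4 are of the lipid transfer protein type, small secreted proteins of the cell surface. AT3G22620 had differences of -1.49 and -1.26, AT3G58550 of -1.24 and -1.70, AT4G22490 of -1.46 and -1.19, and AT2G48130 of -1.60 and -1.01. The last is close to the threshold in yda, at 443 ± 48.3 against 908 ± 91.0.

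Esterases included 3 GDSL-type genes, a family that acts on lipids and on polymers of the cuticle and wall. AT2G23540 was at 1613 ± 11.4 in Ler and 407 ± 39.5 in NdelYDA, and at 1074 ± 80.3 in C24 and 470 ± 86.0 in yda. AT5G45670 had differences of -1.22 and -1.18, and AT5G33370, known as a cutin synthase, of -1.20 and -1.38. CXE18, a carboxylesterase, had -1.77 and -1.34. In AT5G33370 the yda arrays spread widely, from 24.3 to 136, yet all lay below the lowest C24 array at 168.

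Cell wall and surface proteins other than the classes left out were AT1G18980, AT2G22620, AT5G62340 and AT4G11210. AT1G18980, a germin-like protein, was at 2536, 2505 and 2561 in Ler and 806, 759, 816 and 829 in NdelYDA. It stood at 2282, 2382 and 1928 in C24 and at 711, 830, 710 and 909 in yda. Both pairs of levels were alike, and the differences were -1.64 and -1.46. AT2G22620, of the rhamnogalacturonate lyase family that cuts the backbone of a pectin, had -1.43 and -1.78, all at intensities under 112. AT5G62340, of the pectin methylesterase inhibitor family, had -1.85 and -1.01, and AT4G11210, whose family steers the coupling of lignan precursors, had -2.12 and -1.0004.

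Transferases came in 3 kinds, for acyl, methyl and sugar groups. AT1G78990, of the HXXXD-type acyltransferases, read 293, 275 and 291 in Ler and 49.1, 43.5, 53.8 and 13.1 in NdelYDA. It read 429, 250 and 238 in C24 and 77.9, 22.3, 43.7 and 70.5 in yda. The gap was wide on every array, with differences of -2.51 and -2.24, but 7 of the 8 mutant arrays were below their 30th percentile. AT5G67430, of the GNAT acyltransferases, had -2.22 and -1.92 at low signal, since C24 replicate 3 was at 14.2 and the yda arrays at 2.6 to 11. NAMT1, a methyltransferase that acts on nicotinate, had -1.17 and -1.64, and AT5G37990, of the same SABATH family, had -1.2465 and -1.23. UGT72E3, a glucosyltransferase of lignin precursors, had -2.60 and -1.23 from Ler and C24 means of 132 ± 37.8 and 42.9 ± 29.3. Its signal was low, with C24 replicate 3 at 9.6 and the yda arrays at 3.4 to 8.0. AT3G46700, also of the UDP-glycosyltransferases, had -1.08 and -1.15, and AT3G10320, of glycosyltransferase family 61, had -1.48 and -1.34. AT3G10320 did not pass the filter on low values, with all 8 mutant arrays and 4 control arrays below their 30th percentile.

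Proteases numbered 4 and receptor kinases 3. The subtilisin-like AT2G39850 had differences of -1.82 and -1.70 at intensities under 186, and the aspartyl protease AT5G07030 had -1.36 and -1.27 at 2008 ± 124 in Ler and 1047 ± 51.9 in C24. Its relatives AT3G51330 and AT3G51350 had -1.52 and -1.17, and -1.24 and -1.18. The leucine-rich repeat receptor kinases AT1G51860, AT1G51830 and AT5G59680, single-pass proteins of the plasma membrane, had -1.75, -1.62 and -1.68 in NdelYDA. In yda they had -1.54, -1.5019 and -1.41. AT4G25090, of the respiratory burst NADPH oxidases that make superoxide, had -2.38 and -1.2506.

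A group of hormone and regulatory genes, which also took in a lectin, held 6 members. Their Ler means ran from 55.2 in GH3.1 to 756 in EULS3. AT3G25790, a GARP-type transcription factor, was at 198 ± 16.1 in Ler and 83.3 ± 14.8 in NdelYDA, and at 192 ± 54.95 in C24 and 66.4 ± 15.2 in yda. The RING finger genes AT1G72200 and AT4G28890 of the ATL ubiquitin ligase family had -1.52 and -1.33, and -1.32 and -1.11. AT2G30540, a CC-type glutaredoxin, had -1.18 and -1.30. GH3.1, of the family that conjugates acyl acids such as auxin to amino acids, had -1.30 and -1.12, but its highest control value was 61.9 and it did not pass the filter on low values. EULS3, a lectin, was near the threshold in both mutants and even between arrays, at 756 ± 36.2 and 350 ± 9.02, then 739 ± 92.8 and 347 ± 12.9.

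Members given no role included some of the deepest falls. AT4G29030 was at 976, 1038 and 958 in Ler against 305, 266, 228 and 187 in NdelYDA. It was at 1156, 847 and 653 in C24 against 191, 190, 227 and 182 in yda. The mutants reached nearly the same level from controls that were also alike. The differences were -1.96 and -2.05. AT3G25930 had -1.77 and -1.71, AT2G47200 -2.04 and -1.54, AT3G62040 -1.46 and -1.47, AT2G28780 -1.45 and -1.82, and AT1G55240 -1.44 and -1.46. For AT2G27740 (-2.29 and -1.48), AT2G43390 (-1.76 and -1.59) and AT4G02090 (-1.45 and -1.55) no array exceeded 250. AT2G43390 was the dimmest of these, with C24 arrays at 49.3 to 65.8, and did not pass the filter on low values. The unnamed probe sets with the largest smaller falls had differences of -2.85 and -2.73, and of -2.36 and -2.70.

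Low signal limits part of the list. The mutant arrays were all below their 30th percentile in 36 of the 170, 18 of them with 1 gene, while 95 were above it on every array. The 18 included AT1G51860, AT5G59680, AT4G25090, NAMT1 and AT3G51350. The filter used for the tests, an intensity above the 30th percentile on at least 3 arrays, was passed by 163. The probe sets were otherwise bright in the controls, with a median mean intensity of 561 in Ler and 406 in C24, compared with 226 and 219 over all probe sets. This brightness is partly set by the rule, since the fall it required is harder to reach from a dim control. Probe sets that read shared sequence numbered 9 among the members, against 935 among all.

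Members that neighbour each other on the chromosome were looked up in the gene table. Of 79 named loci, 13 lay within 5 protein-coding genes of another, in 7 pairs, and the 3 places that held related members are described. Related neighbours can cross-hybridise, so the values of single probe sets there are uncertain. The genes around them were taken by position, up to 5 on each side, and tested with limma in the fit over all 17210 probe sets. In that fit 32.0% of probe sets were called in NdelYDA, 16.6% lower and 15.4% higher, and 43.4% in yda, 24.4% lower and 19.1% higher. The balance turned with median scaling, to 2544 lower and 2898 higher in NdelYDA (2857 and 2646 without it) and to 3426 lower and 4003 higher in yda (4191 and 3279 without it).

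At the leucine-rich repeat kinase genes, the members AT1G51830, AT1G51840 and AT1G51860 enclose AT1G51850, which was not lower in yda. AT1G51850 fell in NdelYDA, from 110 in Ler to 42.7 (-1.10, SE 0.14, limma adjusted p = 1.97e-05), but rose in yda, from 59.0 in C24 to 365 (2.35, SE 0.14, limma adjusted p = 4.25e-09). Farther out, AT1G51890 fell in NdelYDA (-0.78, SE 0.17, limma adjusted p = 0.0018) and stood at 91.1 against 89.0 in the yda comparison (0.04, adjusted p = 0.891). AT1G51805, on the other side, rose in NdelYDA by 0.44 and fell in yda by 0.38 (limma adjusted p = 0.000924 and 0.0022). The 3 members thus stood among genes with other patterns.

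At the NRT1/PTR genes, AT3G45700 lies between AT3G45680 and AT3G45710. It fell in NdelYDA, from 478 to 187 (-1.29, SE 0.25, limma adjusted p = 0.000844), and in yda it was at 113 against 159 in C24 (-0.53, SE 0.25, limma adjusted p = 0.106). AT3G45720, next to AT3G45710, was at 144 against 137 and at 132 against 149, and was not called in either (limma adjusted p = 0.841 and 0.575). AT3G45690 was below 70 on average in all groups and did not pass the filter. At the aspartyl protease genes, AT3G51360, beside AT3G51350, was not called in either mutant (-0.20 and -0.40, limma adjusted p = 0.391 and 0.056). Farther out, AT3G51370 fell in yda (-0.50, SE 0.08, limma adjusted p = 5.51e-05) and AT3G51400 rose in yda (0.47, SE 0.16, limma adjusted p = 0.0218), and neither was called in NdelYDA (limma adjusted p = 0.212 and 0.474).

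**Figure D4:**
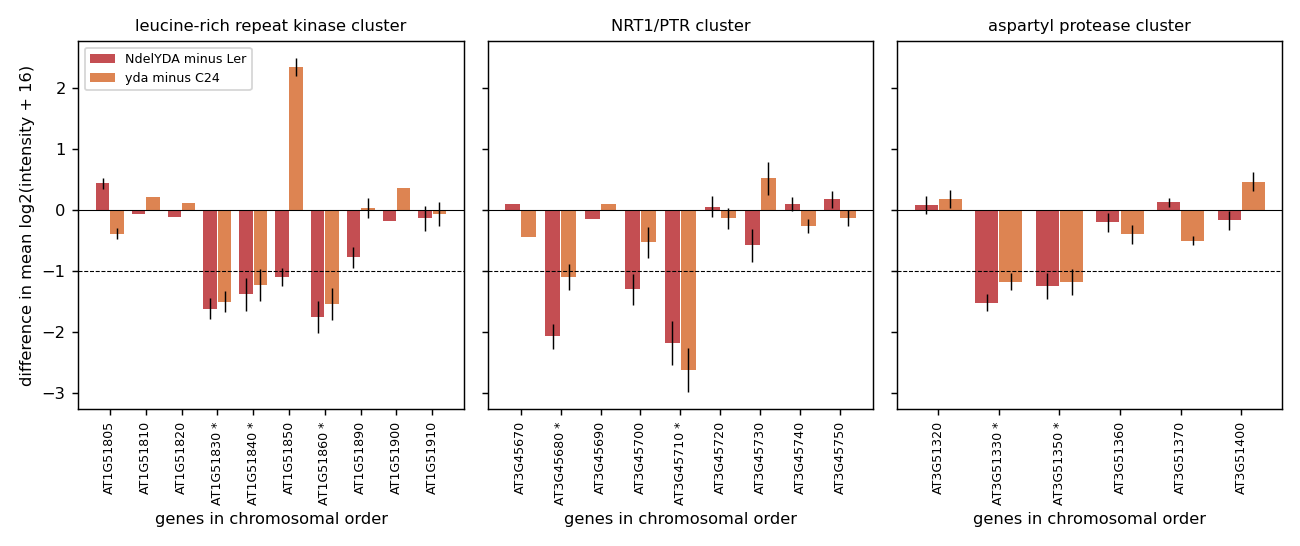
Bars give the NdelYDA minus Ler and yda minus C24 differences in mean log2(intensity + 16) for genes in chromosomal order at 3 places, with the SE from limma where the gene passed the filter. Stars mark members and the dashed line is at -1; AT1G51850 rises by 2.35 in yda between members that fall.

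The control ecotypes were compared next, a contrast the rule did not use, although its arrays were used in the rule. Of 163 members tested, 76 (46.6%) were called different between Ler and C24 at an adjusted p under 0.05 by limma, against 37.2% of all probe sets. Ler was higher in 65 (39.9%, against 21.0%) and C24 in 11 (6.75%, against 16.2%). With median scaling the members' split was 63 and 12, whereas that of all probe sets turned, from 3617 higher in Ler and 2782 higher in C24 to 2864 and 3178. With a fold of at least 2 the count was 31 (19.0%, against 6.94%), 26 of them higher in Ler. The median Ler minus C24 difference was 0.26 in the members and 0.06 over all probe sets tested. These shares describe the list, and no test of the list was made.

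Differences of at least 4-fold were called in 3 of the 163 members tested, against 222 of all 17210 probe sets tested (1.29%). The 3 were AT2G33850, AT5G04120 and an unnamed probe set at 2.68. AT4G14060 (1.98, SE 0.25, limma adjusted p = 1.3e-05), AT3G45710 (1.86, SE 0.38, limma adjusted p = 0.00117) and AT3G26460 (1.67, SE 0.20, limma adjusted p = 7.99e-06) were also higher in Ler. AT1G52820 was higher in Ler by 1.02 (SE 0.21, limma adjusted p = 0.00126), and AT2G16005 by 1.06 (SE 0.14, limma adjusted p = 2.59e-05). C24 was higher for AT1G51830 (-0.99, SE 0.18, limma adjusted p = 0.000481), AT3G46700 (-1.04, SE 0.20, limma adjusted p = 0.000788) and SWEET16 (-0.55, SE 0.12, limma adjusted p = 0.00216). For 87 members no difference was called, as for AT1G78990 (-0.04, SE 0.34, limma adjusted p = 0.938) and EULS3 (0.04, SE 0.09, limma adjusted p = 0.776).

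**Figure D5:**
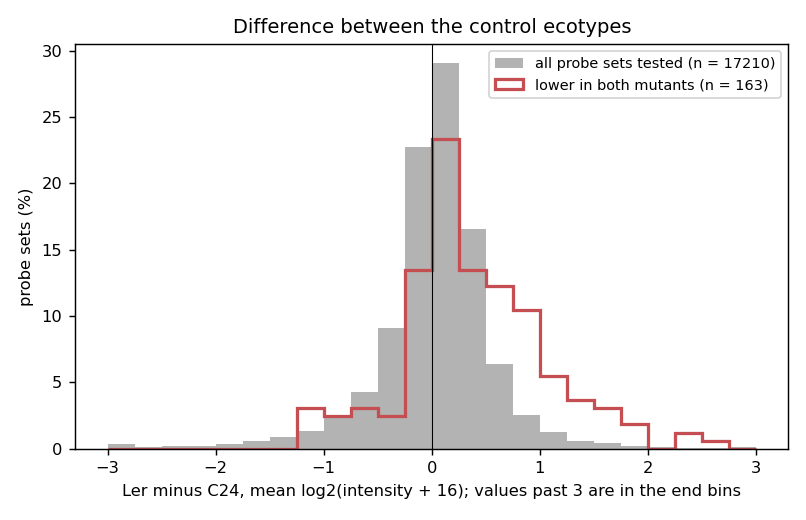
Histograms of the Ler minus C24 difference in mean log2(intensity + 16), as a percentage of probe sets, for all 17210 tested (grey) and the 163 members tested (red outline). The members' median is 0.26, compared with 0.06, and more of their outline lies above 0.5 than of the grey bars.

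With the ecotypes exchanged, so that NdelYDA was set against C24 and yda against Ler, 98 of the 170 still met the rule, among 133 probe sets that did. NdelYDA was below C24 on average for 166 members and yda below Ler for 168. These comparisons pair anew the same mutant and control arrays that the rule used, so their outcome was largely set by the rule. They also hold the ecotype difference, and they are no independent check of the falls.

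Fixed gene lists were thinly covered by the probe table, which named a probe set for 16 of 176 genes on 11 lists. Most lists hold markers of tissues in the seedlings. The others hold genes of the YDA cascade, of gibberellin and brassinosteroid, and of dark and sugar starvation. None was a member. The 5 guard cell genes with a probe set had a summed intensity of 3458 to 3765 in Ler and 886 to 1006 in NdelYDA, against 1904 to 3725 in C24 and 6804 to 7297 in yda. Of them, 4 were called lower in NdelYDA, against 16.6% of all probe sets tested, and 5 higher in yda, against 19.1%. These 4 had opposite directions in the mutants, whereas the single direction of the members was fixed by the rule. FOCL1 was not called in NdelYDA (0.15, limma adjusted p = 0.575). GC1 made up most of the sum in Ler, C24 and yda, with means of 2597, 2035 and 4867, and was at 347 in NdelYDA. The sum for the 2 photosynthesis genes, LHCB4.1 and RCA, was 21397 to 23110 in Ler and 20490 to 22786 in NdelYDA, and 21979 to 25322 in C24 and 20263 to 23639 in yda, so the groups overlapped in both comparisons. LHCB4.1 was called lower in yda (-0.18, limma adjusted p = 0.0326), a call lost with median scaling.

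SCN1, which restricts root hair outgrowth to 1 site, was the root hair gene covered. It fell in both, from 1598 ± 33.0 to 1248 ± 50.5 in NdelYDA (-0.35, SE 0.06, limma adjusted p = 0.00025) and from 1422 ± 52.0 to 1018 ± 50.2 in yda (-0.48, SE 0.06, limma adjusted p = 1.03e-05). GUT2, a xylan gene of the secondary wall, was lower in NdelYDA (-0.64, SE 0.08, limma adjusted p = 6.57e-06) and was not called in yda (-0.17, adjusted p = 0.0785). SIM, of the trichome patterning list, was called in neither (-0.50 and -0.30, limma adjusted p = 0.0597 and 0.23), but with quantile normalization it was called lower in NdelYDA (-0.53). The 1 cuticle gene covered did not pass the filter. No gene of the YDA cascade, suberin and endodermis or phloem lists was covered, and the part that tissue proportions have in the members' falls was not tested. Of 2 genes of dark and sugar starvation, AT2G20670 fell in yda from 2957 to 581 (-2.30, SE 0.17, limma adjusted p = 2.86e-08) and was not called in NdelYDA (0.30, adjusted p = 0.21). AT3G15450 likewise fell in yda (-1.09, SE 0.10, limma adjusted p = 2.74e-07) and was at 7784 against 7508 in the NdelYDA comparison (adjusted p = 0.748). The gibberellin receptors GID1A and GID1B were each called higher in 1 mutant, GID1A in NdelYDA (0.39, SE 0.10, limma adjusted p = 0.00726) and GID1B in yda (0.89, SE 0.21, limma adjusted p = 0.00281).

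The same rule applied in other directions gives the size of the neighbouring sets. Turned to higher in both, it took 153 of the 510 probe sets higher in NdelYDA and of the 517 higher in yda. The 178 lower in both, before the left-out classes were removed, were 26.8% of those lower in NdelYDA and 26.6% of those lower in yda. Opposite directions were rarer, with 29 lower in NdelYDA and higher in yda (4.36% of those lower in NdelYDA) and 56 higher in NdelYDA and lower in yda (8.37% of those lower in yda).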

How the data were processed

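The deposited values are linear probe set intensities for 14 arrays. The mean of each array without its extreme 2% was 500, per the file's own values; the software behind them is not given in the sources used here. Log2(intensity + 16) was computed from them, so log2 differences understate changes of dim genes. Array controls (64 probe sets) were excluded. One limma 3.58.1 model (R 4.3.3) with 4 group means and an intensity trend was fitted to the 17210 probe sets brighter than the 30th percentile of the array on 3 or more arrays, with Benjamini-Hochberg adjustment. It was also run on simulated data, but no outcome is given here, so that run is no support for the calls. Entrez identifiers matched 13436 of 13513 probe sets of 1 gene to the TAIR10.1 gene table, used for names and gene order. Peroxidases were recognised by a locus list from memory, expansins and XTH genes by symbol. The members and lists were chosen with earlier results of these data known. Named were the 25 with the largest smaller fall, AT1G52820, AT2G33850, list genes, 4-fold ecotype differences and the 3 nearest each side of the threshold; word patterns in symbols found no family of 3. Alternatives changed pseudocount, scaling, filter, threshold, control, block, variance model and arrays. The number of arrays limits the precision.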

Additional observations from a re-analysis of the deposited data

Results flagged for a closer look

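For 28 members, those picked mainly for the largest smaller falls, 56 groups of 4 mutant arrays were examined. In 3 of them an array was far from the other 3, where chance flags about 1 in 20. In yda replicate 2, AT5G67430 was at 11 against 2.6 to 3.7 on the other yda arrays. In yda replicate 3, AT2G39850 was at 27.0 against 6.9 to 8.5, and AT2G43390 at 26.1 against 2.2 to 4.3. All these intensities lie below the 30th percentile of their arrays.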

How the results depend on the processing

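The number of probe sets that met the rule was 89 with a pseudocount of 64 and 28 with a threshold of -1.5, against 170, and all of these were among the 170, while it was 226 with a pseudocount of 1, which kept all 170. It was 148 with median scaling, 156 with quantile normalization and 163 to 199 with 1 array left out, which kept 148 to 170 of the members. Over alternatives that changed 1 choice, 1130 log2 differences were followed for 28 members, those picked mainly for the largest smaller falls. Of these, 1077 moved by less than the spread between replicates and 53 by more, within -6.43 to -0.79. None reversed, which was largely set by the rule, since it required a fall of at least 1 without overlap in both comparisons. Members called between Ler and C24 numbered 68 to 88 with 1 array left out, against 76. With the replicate number as a block, 5110 probe sets were called in place of 5503 for NdelYDA, 7171 in place of 7470 for yda and 6247 in place of 6399 for Ler against C24, and 77 members in place of 76. The numbers were not taken to pair the samples, since not every same-numbered correlation of deviations was over 0.1: they were -0.02 to 0.02 between NdelYDA and Ler, -0.16 to 0.08 between yda and C24, and 0.16, 0.10 and 0.03 between Ler and C24. Signals below the 30th percentile of the array limit the precision of the lowest mutant values.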

Other observations

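Among 73 named loci higher in both mutants, 12 lay within 5 genes of another in 6 pairs, against 13 of 79 in 7 pairs for those lower in both.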
